A study of Rattus norvegicus with 6 samples.

Results

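The proteasome genes of the rat aorta were followed from freshly cut rings to the first day of culture. They were taken as the array rows annotated with exactly 1 gene symbol that begins with Psma, Psmb, Psmc, Psmd, Psme, Psmf or Psmg and a number, with the brightest row kept for each gene. This gave 47 of the 14324 genes measured. Of these, Psmc3ip and Psme3ip1 encode partner proteins rather than subunits, and Psma3l is a symbol that RefSeq lists as a synonym of Psma3. The other 44 encode subunits, activators or assembly chaperones. Psma3, Psma8, Psmf1 and Psmg3 were not analysed here, and no row was left out for a low value.

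The tissue came from male rats of the Fisher 344 strain aged 1 to 2 months. Day 0 samples were rings taken straight from the vessel. Day 1 samples were rings embedded in collagen gel and kept in serum-free EBM medium. Each group held 3 samples, each pooled from 4 to 6 rings or cultures and hybridised to 1 whole-transcript array. A ring contains every cell type of the wall and what adheres to it, so more transcript per cell and more cells of a type cannot be told apart. All levels below are deposited log2 values. Changes are day 1 minus day 0 with the standard error (SE) after ±, from the limma fit unless stated otherwise, n = 3 arrays per group. A call means an adjusted p under 0.05 (Benjamini-Hochberg over all genes).

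The proteasome is the barrel-shaped protease that degrades proteins tagged with ubiquitin. Its core particle stacks outer rings of alpha subunits, which form the gate, on inner rings of beta subunits, of which Psmb5, Psmb6 and Psmb7 carry the active sites. The cap, or regulatory particle, has a base, with a ring of ATPases (Psmc genes) that unfolds the substrate, and a lid that removes ubiquitin. Interferon induces Psmb8, Psmb9 and Psmb10, which take the places of Psmb5, Psmb6 and Psmb7 to form the immunoproteasome. Interferon also induces Psme1 and Psme2, which form an activator ring that can dock in place of the cap. The immunoproteasome is known for making peptides for class I antigen presentation, and is abundant in leukocytes.

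Promoters were compared because the interferon-inducible and the other subunits are known to be controlled through different elements. RefSeq promoter windows of assembly GRCr8 (250 bases before to 50 after the start) were found for 41 of the 47 genes and searched on both strands, overlaps allowed. Only the first window listed for a gene was used, so any other start site was not searched. The core of the interferon-stimulated response element, GAAANNGAA, lay in 9 of the 41 windows (22.0%), against 970 of the 11825 windows of tested genes (8.2%). The 9 genes were Psma4, Psmb2, Psmb3, Psmb8, Psmb10, Psmd7, Psmd11, Psme2 and Psmg4, so a match was found for 3 of the 5 interferon-inducible genes. The antioxidant response element core, TGACNNNGC, through which NFE2-related factors bind, lay in 7 windows (17.1%, against 13.7% of tested genes), namely those of Psmb2, Psmb5, Psmb6, Psmd1, Psmd3, Psmd9 and Psme4. The gamma-activated site TTCNNNGAA lay in 4 windows (9.76%, against 7.59%), those of Psmb8, Psmc6, Psmd3 and Psmd7. These are matches of letters, not shown binding sites.

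The following stretches show the interferon-inducible genes Psmb10, Psme2, Psmb8 and Psmb9, and then the cap and core genes Psmd11, Psmd1, Psmb5 and Psmb6. They are printed 5′ to 3′ on the gene's strand, with matches to any of these motifs in capitals. The Psmb10 stretch is chr19:50743293-50743392 (minus strand), the Psme2 stretch chr15:33052752-33052851 (minus), the Psmb8 stretch chr20:4657026-4657049 (minus) and the Psmb9 stretch chr20:4668900-4668999 (plus). The Psmd11 stretch is chr10:65932143-65932242 (plus), the Psmd1 stretch chr9:94157771-94157870 (plus), the Psmb5 stretch chr15:32047380-32047479 (minus) and the Psmb6 stretch chr10:55737788-55737887 (plus), all in GRCr8.
Psmb10: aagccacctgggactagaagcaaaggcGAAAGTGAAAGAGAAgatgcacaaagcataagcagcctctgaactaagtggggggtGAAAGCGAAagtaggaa
Psme2: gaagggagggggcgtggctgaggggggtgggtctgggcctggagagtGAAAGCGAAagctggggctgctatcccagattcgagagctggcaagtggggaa
Psmb8: cttggtgctgtggctTTCGCTTTC
Psmb9: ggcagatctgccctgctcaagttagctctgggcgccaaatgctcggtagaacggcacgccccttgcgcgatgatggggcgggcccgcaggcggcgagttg
Psmd11: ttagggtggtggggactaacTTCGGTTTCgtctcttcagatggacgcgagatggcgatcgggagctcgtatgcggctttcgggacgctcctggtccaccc
Psmd1: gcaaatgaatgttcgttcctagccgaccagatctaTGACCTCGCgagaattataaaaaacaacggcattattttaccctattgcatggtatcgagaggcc
Psmb5: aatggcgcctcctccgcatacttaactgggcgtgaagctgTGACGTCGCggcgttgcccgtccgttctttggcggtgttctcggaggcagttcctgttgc
Psmb6: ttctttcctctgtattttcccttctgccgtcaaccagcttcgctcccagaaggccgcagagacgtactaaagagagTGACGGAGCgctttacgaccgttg

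Psmb10 had 3 interferon element matches, of which those beginning 73 and 67 bases before the start share letters (start_from_tss positions -73 and -67) and the other begins at -17. The single matches began at -53 in Psme2 and at -180 in Psmd11. The Psmb8 match, read on the opposite strand, began at -3 and ran over the start to base 6. The antioxidant element matches shown began at -165 in Psmd1, -60 in Psmb5 and -24 in Psmb6. The whole Psmb9 window held no match to any of the 3 motifs.

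Transcripts of nearly the whole proteasome were higher after 1 day of culture. Of the 47 genes 42 rose and 0 fell by limma, where 27.6% of all genes tested rose and 20.7% fell. At an unadjusted p under 0.05, 44 were higher and 0 lower. Their changes ran from -0.07 to 1.04 with a median of 0.51, against -0.01 for all genes, and only Psmd11 changed by 2-fold or more. All 3 day 1 arrays lay above all 3 day 0 arrays in 45 of the 47 genes, against 31.4% of all genes. Bright genes rose more often on these arrays, which touches this count. Among the 4498 genes with a mean log2 value of at least 8, 45.6% rose with a median change of 0.14, and 38 of the 39 proteasome genes in that range rose with a median of 0.56. The exception was Psmg1. Of the 8 dimmer proteasome genes 4 rose. The 5 genes not called were Psmb8, Psmb11, Psmc3ip, Psmd9 and Psmg1.

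**Figure D1:**
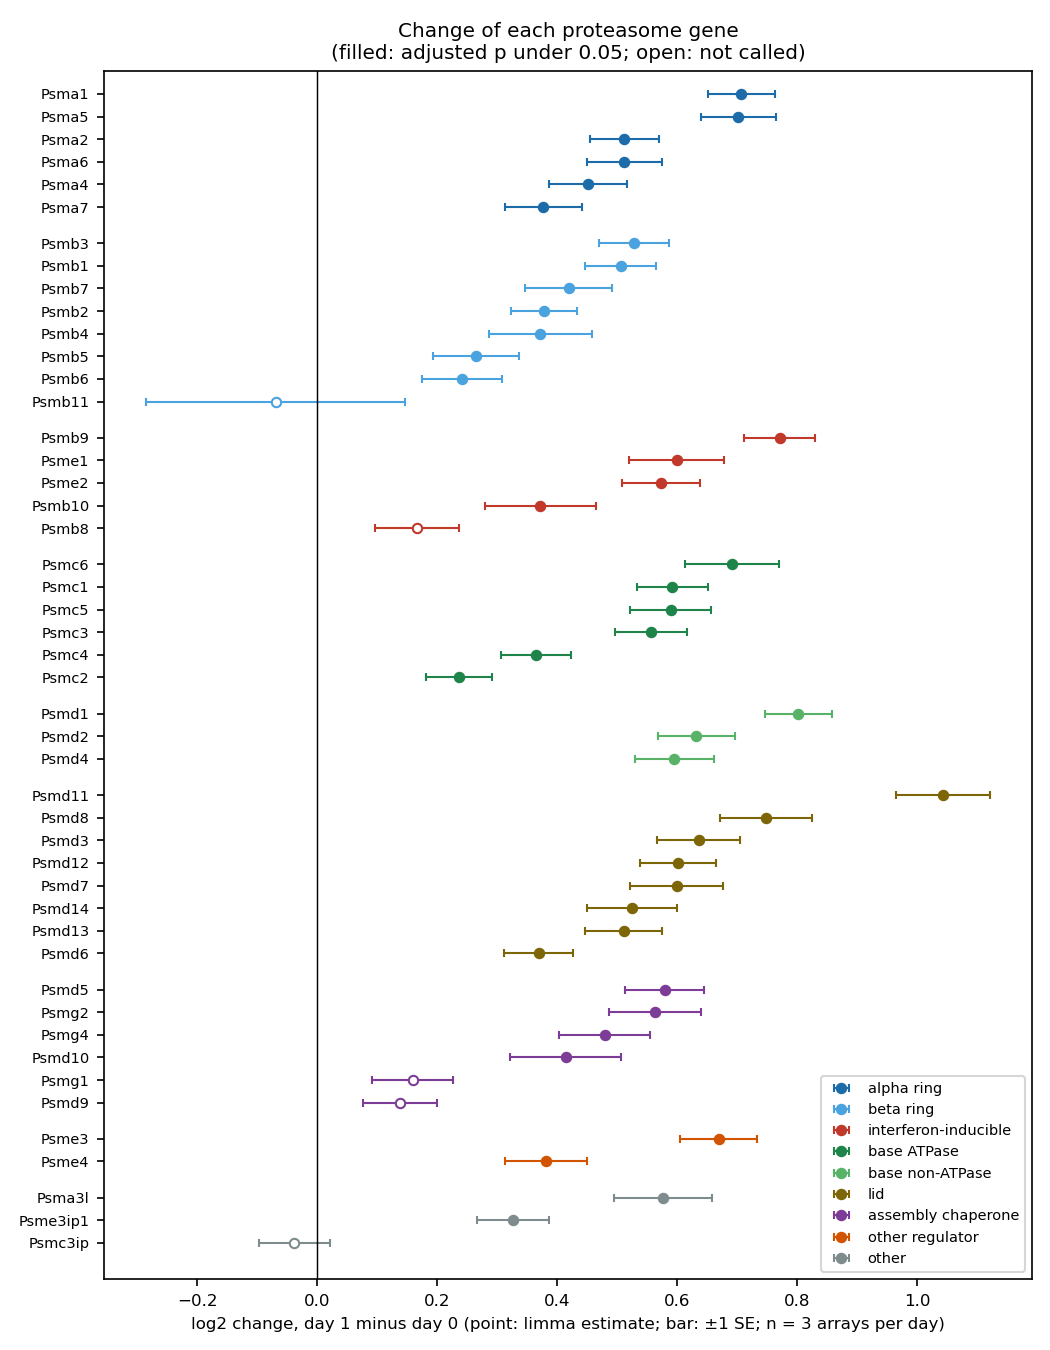
Log2 change from day 0 to day 1 (x axis) of each of the 47 proteasome genes, grouped and coloured by role; points are limma estimates, bars ±1 SE, n = 3 arrays per day, and open points were not called. 45 of the 47 points lie above 0, and Psmd11 is the only one past 1.

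**Figure D2:**
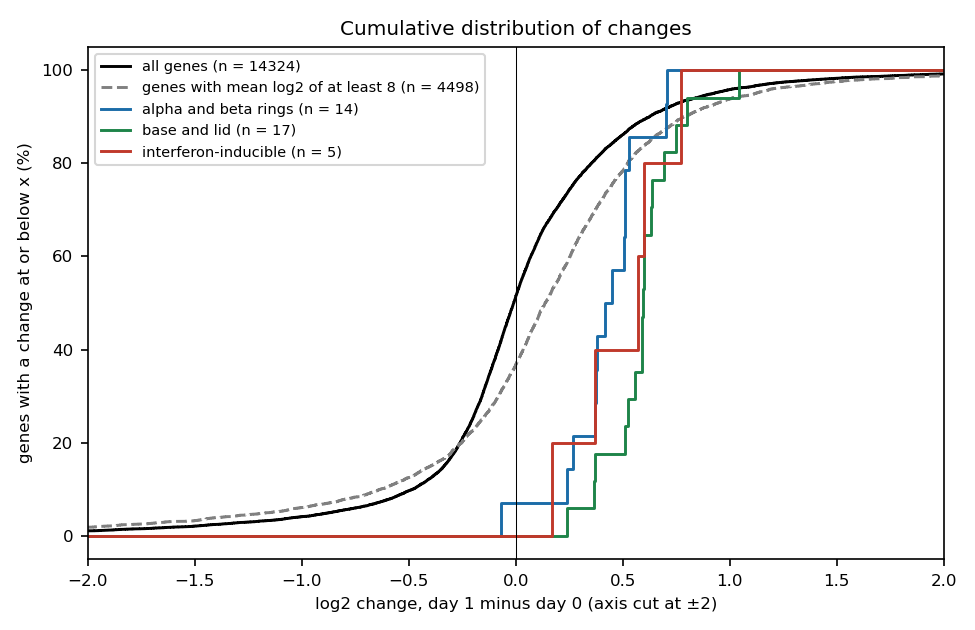
Cumulative percentage of genes (y axis) by log2 change (x axis, cut at ±2) for all 14324 genes, the 4498 genes with a mean log2 value of at least 8, and the core, cap and interferon-inducible genes. Core here means the alpha and beta rings with Psmb11 and without Psma3l. The core, cap and interferon-inducible curves rise almost wholly between 0 and 1, to the right of both background curves at their middle.

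All 6 alpha ring genes measured under their own symbols rose, with a median change of 0.51. Psma1 was at 9.95, 9.98 and 10 on day 0 and at 10.71, 10.69 and 10.65 on day 1, a change of 0.71 ± 0.06 (1.63-fold, adjusted p = 2.40e-05). Psma7, the least changed, was at 10.5, 10.53 and 10.42 and then at 10.92, 10.84 and 10.8, a change of 0.38 ± 0.06 (adjusted p = 0.00165). The day groups were apart in both genes. Psma5 changed by 0.70 ± 0.06, and Psma2, Psma4 and Psma6 by 0.45 to 0.51. Psma3l also rose, from 9.6, 9.66 and 9.52 to 10.13, 10.32 and 10.07 (0.58 ± 0.08). Which of the loci under these names the row measures is uncertain.

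Of the 8 beta ring genes outside the interferon-inducible set, the 7 of the constitutive ring rose and Psmb11 was not called, with a median of 0.38 over all 8. Psmb3, a structural subunit without an active site, rose most, from 8.54, 8.53 and 8.59 to 9.13, 9.07 and 9.04 (0.53 ± 0.06, adjusted p = 1.57e-04). The structural genes Psmb1 and Psmb4 changed by 0.51 ± 0.06 and 0.37 ± 0.09, and Psmb2, another structural gene, by 0.38 ± 0.06. Psmb5, which carries the chymotrypsin-like site, was at 10.12, 10.1 and 9.93 on day 0 and at 10.36, 10.31 and 10.27 on day 1 (0.26 ± 0.07, adjusted p = 0.0171). Psmb6, of the caspase-like site, was at 8.37, 8.22 and 8.24 and then at 8.46, 8.54 and 8.56 (0.24 ± 0.07, adjusted p = 0.0184). Psmb7, of the trypsin-like site, was at 10.06, 10.13 and 9.98 and then at 10.53, 10.52 and 10.37 (0.42 ± 0.07, adjusted p = 0.00189). The day groups did not overlap in any of these 3 genes. With quantile normalization the calls of Psmb5 (adjusted p = 0.0736), Psmb6 (0.12, adjusted p = 0.154) and Psmb4 (0.19, adjusted p = 0.171) were lost. The Psmb5 call was also lost without day 0 replicate 3 or day 1 replicate 1, and that of Psmb6 without any 1 of day 0 replicates 2 and 3 and day 1 replicates 2 and 3 (adjusted p of 0.0515 to 0.0599).

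Psmb11 encodes the catalytic subunit known from the cortex of the thymus. It was at 4.74, 4.23 and 4.6 on day 0 and at 4.49, 4.86 and 4.01 on day 1. The groups overlapped, and the change was -0.07 ± 0.22 (adjusted p = 0.821). In GRCr8 it is the next gene to Psmb5 on chromosome 15.

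Of the 5 interferon-inducible genes 4 rose, with a median change of 0.57 that lay within the range of the other roles. Psmb9 rose most, from 8.2, 8.13 and 8.14 to 8.98, 8.9 and 8.91 (0.77 ± 0.06, 1.71-fold, adjusted p = 1.94e-05). Psme1 was at 10.48, 10.57 and 10.34 and then at 11.13, 11.09 and 10.98 (0.60 ± 0.08, adjusted p = 4.22e-04). Psme2 was at 10.05, 10.1 and 9.98 and then at 10.54, 10.65 and 10.65 (0.57 ± 0.07, adjusted p = 1.83e-04). In these 3 genes every day 1 array stood well above every day 0 array. Psmb10 was at 7.08, 7.19 and 6.92 and then at 7.55, 7.31 and 7.45 (0.37 ± 0.09, adjusted p = 0.0116). Psmb8 was at 6.72, 6.6 and 6.58 and then at 6.8, 6.73 and 6.87 (0.17 ± 0.07, adjusted p = 0.0844). Its day 1 arrays all lay above its day 0 arrays, but only just, with 6.72 as the highest day 0 value and 6.73 as the lowest of day 1. Psmb8 passed the threshold only with median centring (0.22, adjusted p = 0.0432).

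**Figure D3:**
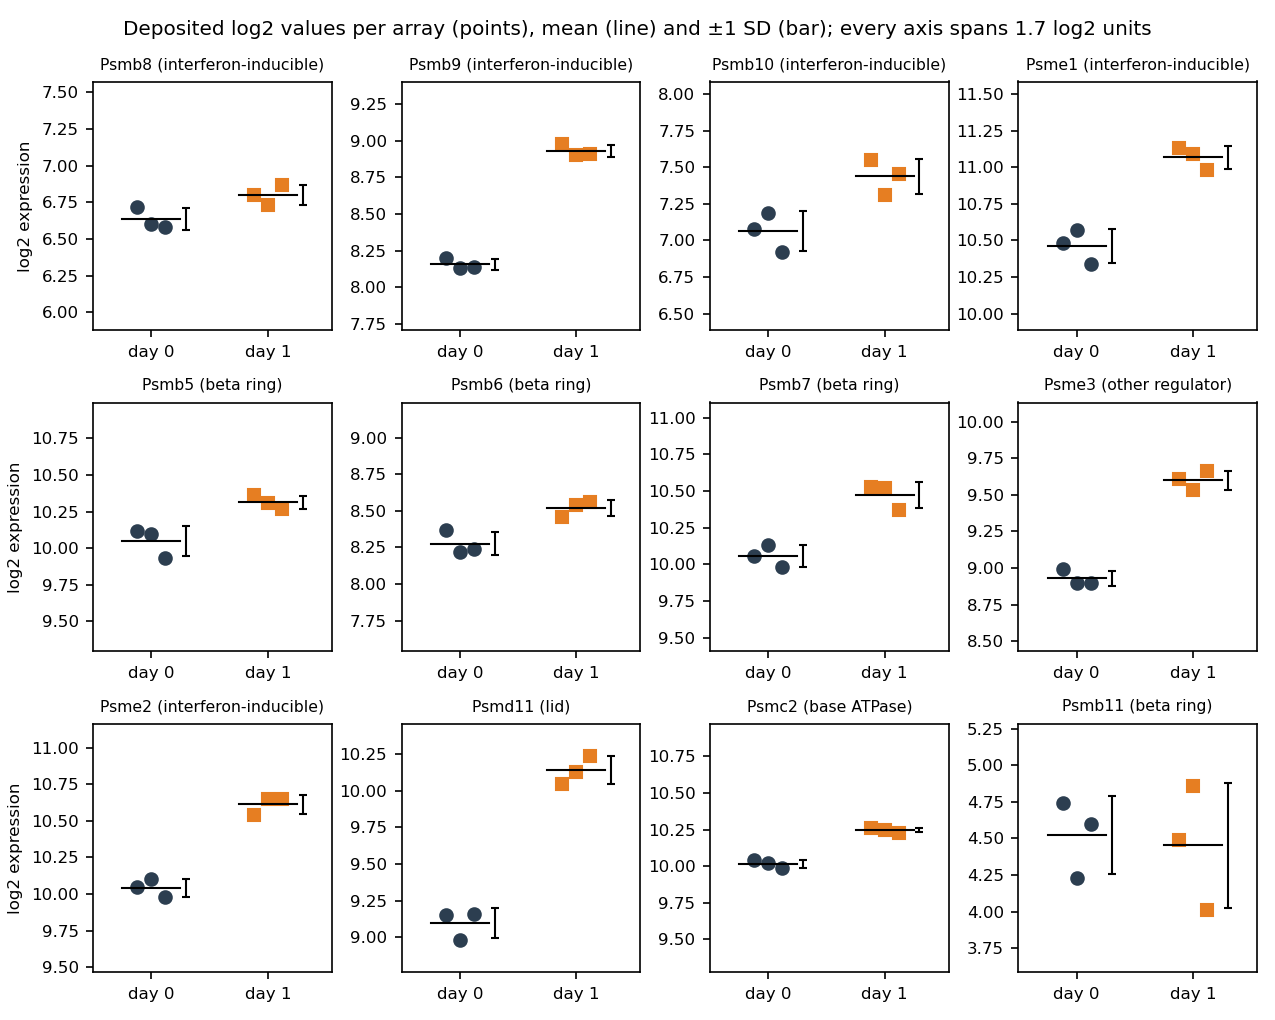
Deposited log2 value of 12 proteasome genes in each of the 3 day 0 arrays (circles) and 3 day 1 arrays (squares), with the mean as a line and ±1 SD as a bar; every y axis has the same span. Psmd11, Psmb9 and Psme3 show the widest gaps between days, Psmb8 and Psmb6 narrow ones, and Psmb11 overlaps.

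Whether the inducible beta subunits gained on those they replace was asked within each array, as the log2 difference between partners. For Psme1 and Psme2 the partner was Psme3, a member of their family rather than a subunit they replace. The size of a difference between partners depends on the probes, so only its change between days is read. The SE of that change comes from the pooled SD of the differences, not from limma. Partners also differed in brightness. On day 0 Psmb8 (mean 6.63) and Psmb10 (7.06) lay far below Psmb5 and Psmb7 (both 10.05), whereas Psmb9 (8.16) lay near Psmb6 (8.28). Psme1 (10.47) and Psme2 (10.04) lay above Psme3 (8.93). The median change was 0.27 in proteasome genes with a mean under 8 and 0.56 in brighter ones. The part of brightness in the pair changes was not tested. Psmb9 minus Psmb6 was -0.17, -0.09 and -0.1 on day 0 and 0.52, 0.36 and 0.35 on day 1, a change of 0.53 ± 0.06. All day 1 differences lay above all day 0 differences, with an exact permutation p of 0.10 (two-sided), the smallest that 3 arrays against 3 can give. The other pairs did not move that way. Psmb8 minus Psmb5 changed by -0.10 ± 0.07 (exact p = 0.2) and Psmb10 minus Psmb7 by -0.05 ± 0.10 (exact p = 0.8). Against Psme3, an activator subunit of the same family that acts in the nucleus, Psme1 changed by -0.07 ± 0.10 (exact p = 0.6) and Psme2 by -0.10 ± 0.07 (exact p = 0.3). Adjusted over the 5 pairs, the exact p-values were 0.5 to 0.8. The last 2 pairs share Psme3.

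**Figure D4:**
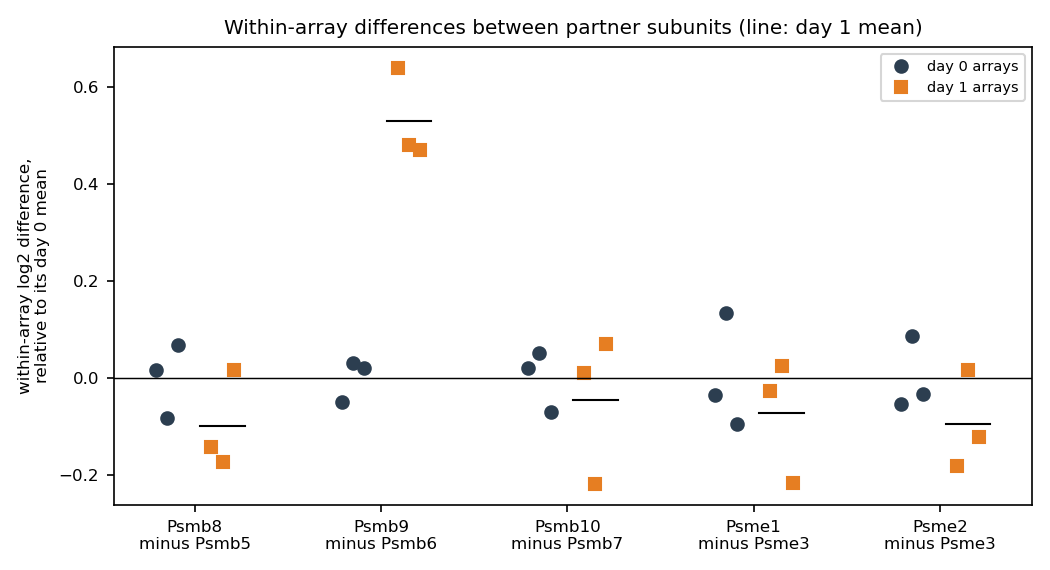
Within-array log2 difference between each interferon-inducible subunit gene and its partner (y axis, set to a day 0 mean of 0) in the 3 day 0 arrays (circles) and 3 day 1 arrays (squares). The Psmb9 minus Psmb6 squares, with a mean change of 0.53, stand apart, and the other pairs overlap between days.

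All 17 base and lid genes of the cap rose, with a median change of 0.60, against 0.48 for 14 core genes (the alpha and beta rings with Psma3l, without Psmb11 and the interferon-inducible genes). This difference in medians was not tested. Among the 6 base ATPase genes Psmc6 rose most, from 9.3, 9.13 and 9.2 to 9.79, 9.99 and 9.92 (0.69 ± 0.08, adjusted p = 1.67e-04). Psmc2 rose least, from 10.04, 10.02 and 9.99 to 10.26, 10.25 and 10.23 (0.24 ± 0.06, adjusted p = 0.00833). The small change of Psmc2 came with SDs of 0.03 and 0.02, so the day groups were still clearly apart. Psmc1, Psmc3 and Psmc5 changed by 0.56 to 0.59 and Psmc4 by 0.37.

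The 3 other base genes changed by similar amounts. Psmd1, a scaffold of the base, was at 10.06, 10 and 10.03 and then at 10.82, 10.86 and 10.82 (0.80 ± 0.06, 1.74-fold, adjusted p = 1.20e-05). Psmd4, a receptor for ubiquitin chains, was at 7.96, 7.98 and 8.1 and then at 8.55, 8.65 and 8.63 (0.60 ± 0.07, adjusted p = 1.61e-04). Psmd2, the other scaffold, changed by 0.63 ± 0.06.

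The lid held the gene with the largest change of all 47. Psmd11, a lid subunit that clamps the cap to the core, was at 9.15, 8.98 and 9.16 on day 0 and at 10.05, 10.13 and 10.24 on day 1 (1.04 ± 0.08, 2.06-fold, adjusted p = 1.75e-05). Its change stood at the 96.2 percentile of all genes. Psmd6 changed least among the 8 lid genes, from 9.71, 9.7 and 9.76 to 10.08, 10.13 and 10.05 (0.37 ± 0.06, adjusted p = 0.00112). Psmd8 changed by 0.75 ± 0.08 and Psmd14, the deubiquitinase of the lid, by 0.53 ± 0.08. Psmd3, Psmd7, Psmd12 and Psmd13 changed by 0.51 to 0.64.

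Assembly chaperones rose in 4 of 6 cases, with a median of 0.45. Psmd5, a chaperone of the base, rose from 8.21, 8.17 and 8.14 to 8.76, 8.83 and 8.67 (0.58 ± 0.07, adjusted p = 1.78e-04). Psmd10, the base chaperone gankyrin, changed by 0.41 ± 0.09. Psmd9, the remaining base chaperone, was at 7.52, 7.58 and 7.52 and then at 7.74, 7.68 and 7.62 (0.14 ± 0.06, adjusted p = 0.0999). Of the chaperones of the alpha ring, Psmg2 changed by 0.56 ± 0.08 and Psmg4 by 0.48 ± 0.08, whereas Psmg1, which pairs with Psmg2, was at 9.32, 9.28 and 9.18 and then at 9.46, 9.44 and 9.35 (0.16 ± 0.07, adjusted p = 0.0845). Psmd9 (adjusted p = 0.0404) and Psmg1 (adjusted p = 0.0433) passed the threshold with median centring, and Psmg1 also with an intensity trend and robust prior together (adjusted p = 0.0225).

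The activators outside the interferon-inducible set also rose. Psme3 was at 8.99, 8.9 and 8.9 and then at 9.61, 9.53 and 9.66 (0.67 ± 0.06, adjusted p = 6.92e-05). Psme4, a large single-chain activator found in nuclei, was at 9.4, 9.22 and 9.33 and then at 9.65, 9.72 and 9.72 (0.38 ± 0.07, adjusted p = 0.00211). Of the partner proteins, Psme3ip1, which binds Psme3, changed by 0.33 ± 0.06 (adjusted p = 0.00255, and 0.21 with quantile normalization). Psmc3ip, a factor of meiotic recombination, was at 6.5, 6.46 and 6.51 and then at 6.41, 6.51 and 6.43. Its groups overlapped, with a change of -0.04 ± 0.06 (adjusted p = 0.634).

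For 7 of the genes a second, dimmer row carried the same symbol. The second rows of Psmc4 (0.32 ± 0.08), Psme2 (0.53 ± 0.07), Psma6 (0.55 ± 0.13) and Psme3 (0.37 ± 0.11) also passed the threshold when every row was tested. Those of Psmb6 (0.08 ± 0.09, adjusted p = 0.561), Psmd8 (0.32 ± 0.14, adjusted p = 0.127) and Psme1 (0.18 ± 0.14, adjusted p = 0.352) did not. With the mean of both rows the Psme1 change was 0.39 rather than 0.60, and Psmb6 lost its call (0.16, adjusted p = 0.0553). Why rows of the same gene differed was not tested.

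The 46 genes with a place in GRCr8 lie on 18 chromosomes, with at most 8 on any 1. Some are close neighbours. Psmb8, Tap1 and Psmb9 follow each other on chromosome 20, next to Tap2. Across this row the changes were 0.17 for Psmb8, 1.17 for Tap1, 0.77 for Psmb9 and 0.49 for Tap2. Psme1 and Psme2 lie on chromosome 15 with Emc9 between them, and changed by 0.60 and 0.57.

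Genes around the proteasome were counted in lists, whose counts and medians are to be read beside the 27.6% of all genes that rose, the 20.7% that fell and the median of -0.01, or beside the 45.6% and 0.14 of bright genes. The same holds for the cell type markers. Of 9 measured class I presentation genes, which load peptides for display, 8 rose and 0 fell by limma (none lower at an unadjusted p under 0.05), with a median of 0.48. The peptide transporter gene Tap1 was at 7.92, 8.0 and 7.5 and then at 9.11, 8.7 and 9.1 (1.17 ± 0.16). The loading factor gene Tapbp changed by 0.83 ± 0.09 and the light chain gene B2m by 0.54 ± 0.06. Erap1, which trims peptides in the endoplasmic reticulum, was at -0.13 ± 0.06 (adjusted p = 0.115). With quantile normalization 5 of the list rose and 1 fell.

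The interferon pathway list went both ways, with 7 of 14 genes higher and 2 lower (median 0.27). This share of higher genes lay above the 27.6% of all genes and near the 45.6% of bright genes. The list is not made of bright genes alone, since Irf1 and Socs1, for example, lay under 8 on all arrays. The factor Irf7, itself an interferon target, rose by 1.84 ± 0.09, the type I receptor gene Ifnar1 by 1.12 ± 0.08 and the receptor kinase gene Jak2 by 1.08 ± 0.11. Irf1, an activator of the immunoproteasome genes, was at 7.43, 7.55 and 7.31 and then at 7.38, 7.24 and 7.43 (-0.08 ± 0.08, adjusted p = 0.492), with overlapping groups. Socs1, a feedback inhibitor of the pathway, fell by 0.94 ± 0.11. Ifnb1 fell by 0.50 ± 0.09 and Ifng was at -0.30 ± 0.13 (adjusted p = 0.0825). Both interferon rows were dim, at 3.39 to 4.29 on all arrays. The number of the list that fell was 1 without the dimmest 25% of genes, and 3 with quantile normalization, without day 0 replicate 2 or without day 1 replicate 2.

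Among 11 regulators of proteasome gene expression 8 were called higher and 2 lower (median 0.51). Nfe2l1, the factor known to raise proteasome genes when proteasome capacity is short, rose from 10.34, 10.23 and 10.18 to 10.81, 10.76 and 10.78 (0.53 ± 0.06). Bach1, a repressor at antioxidant elements, rose by 1.42 ± 0.08, the small Maf partner gene Maff by 1.30 ± 0.08 and Nfe2l2, which encodes NRF2, by 1.22 ± 0.07. Keap1, the NRF2 inhibitor, was at -0.03 ± 0.07 (adjusted p = 0.746). Ngly1, the glycanase that activates the Nfe2l1 protein, fell by 0.29 ± 0.07, and Mafk fell by 0.26 ± 0.07. Without day 1 replicate 2, 1 gene of the list fell.

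Of 11 other parts and partners 9 were called higher and 1 lower (median 0.46). The largest changes were those of Zfand2a (1.32 ± 0.08) and Zfand5 (0.92 ± 0.07), zinc finger proteins that bind the proteasome, and of the cap deubiquitinase gene Usp14 (0.68 ± 0.07). The small chaperone gene Hspb1 fell by 0.24 ± 0.06, and the lid subunit gene Sem1 was at 0.15 ± 0.06 (adjusted p = 0.086). Of 12 ubiquitin activating enzymes, unfolding factors and shuttles 11 were called higher and 0 lower by limma (none lower at an unadjusted p under 0.05), with a median of 0.45. The autophagy receptor gene Sqstm1 was at 1.18 ± 0.07, the segregase cofactor gene Nploc4 at 0.87 ± 0.06 and the receptor gene Nbr1 at 0.70 ± 0.07, whereas the shuttle gene Ubqln1 was at 0.09 ± 0.06 (adjusted p = 0.252). Among 7 peptidases that cut proteasome products 6 were called higher and 1 lower (median 0.47). Thop1 rose by 1.13 ± 0.10, Nrdc by 0.65 ± 0.06 and the aminopeptidase gene Npepps by 0.47 ± 0.07, and Blmh fell by 0.76 ± 0.09.

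**Figure D5:**
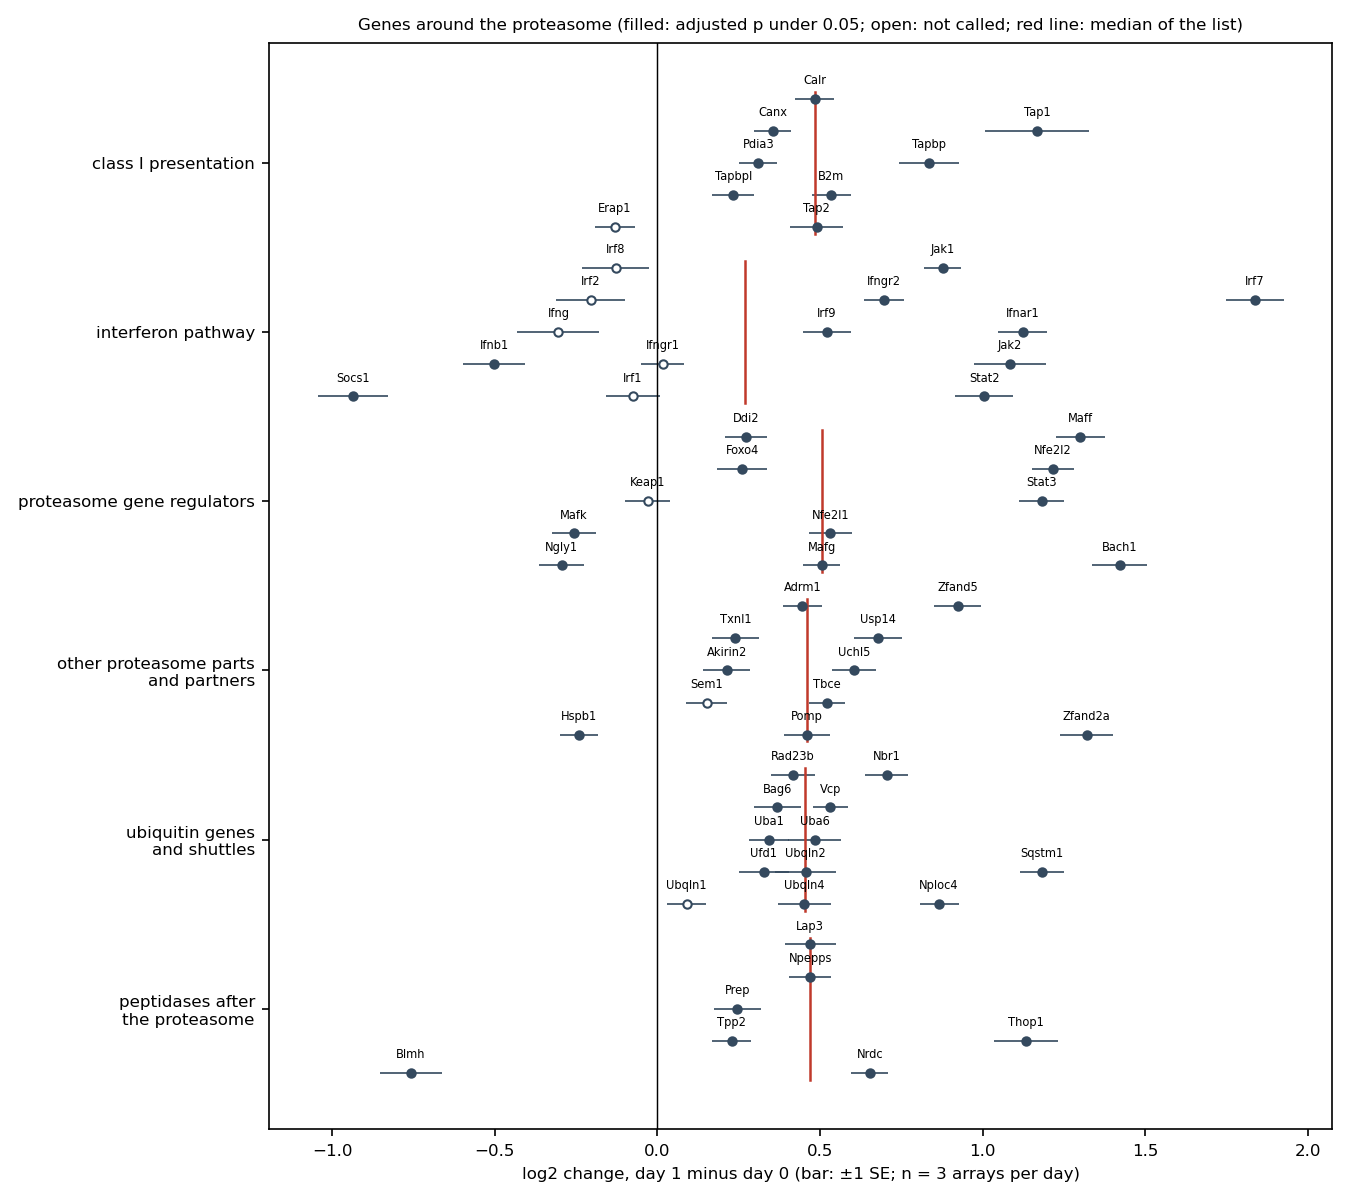
Log2 change from day 0 to day 1 (x axis) of each gene in the 6 lists around the proteasome; points are limma estimates, bars ±1 SE, n = 3 arrays per day, open points were not called, and red lines are list medians. The medians lie at 0.45 to 0.51 except in the interferon list, at 0.27, which holds both Irf7 at 1.84 and Socs1 at -0.94.

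Cell type markers moved over the same day. All 7 smooth muscle markers fell, from a summed level (log2 of the sum of antilogged values) of 14.8 to 14.85 on day 0 to one of 11.62 to 11.79 on day 1. Among 5 genes of all leukocytes, which carry the immunoproteasome, 2 rose, namely Cd53 (0.98 ± 0.09) and Ptprc (0.45 ± 0.11), and 0 fell by limma, with 1, Coro1a, lower at an unadjusted p under 0.05. Their summed level was 9.6 to 9.74 on day 0 and 9.78 to 10.06 on day 1. Of 7 macrophage markers 3 rose and 2 fell (11.19 to 11.22, then 11.3 to 11.49). Of 7 T and NK cell markers 0 rose, with none higher at an unadjusted p under 0.05, and 3 fell (9.29 to 9.33, then 8.77 to 8.94). Those 3 were Cd4, Cd2 and Gzmb. Cd4 was the brightest, at a mean of 8.77 on day 0 and 8.25 on day 1, and weighs most in this sum. The lower sum is therefore mainly that of Cd4 and is not read as a change in T and NK cells. Cd3e, Cd3d, Cd8a and Nkg7 were dim, at day 0 means of 4.2 to 4.84, and were not called. Of 3 B cell markers 1 rose (6.64 to 7.06, then 7.33 to 7.53), namely Blk (1.11 ± 0.20). Cd79b (-0.04 ± 0.08) and Ms4a1 (0.14 ± 0.09) were not called. Of 4 neutrophil markers 0 passed the threshold or an unadjusted p of 0.05 (6.28 to 6.42, then 6.25 to 6.44). Of 5 endothelial markers 3 were called higher and 1 lower (10.73 to 10.91, then 10.81 to 10.9). The 6 fibroblast markers split evenly, with 3 called in each direction (14.89 to 14.95, then 14.92 to 14.99). All 4 adipocyte markers fell (8.89 to 9.15, then 7.45 to 7.53), as did both erythroid markers (9.68 to 10.21, then 7.15 to 7.42). The part of these shifts in the proteasome changes was not tested.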

How the data were processed

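Whole-transcript arrays were read in 6 samples, 3 per day. The authors deposited log2 values, 1 per row and array, for 27342 rows; the log2 scale was inferred from their range. Per the labels, 200 ng of total RNA per sample was biotin-labelled. Per the submitters' processing notes limma was used; the handling of background, summarisation and normalization was not given in the sources used here. Values were used unscaled, with medians per array from 5.87 to 5.95. An earlier equalisation of arrays would set changes relative to the bulk of genes. The number of arrays limits the precision.

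Rows with exactly 1 symbol (15097; 323 had several and 11922 none) were named through the platform annotation, updated by Entrez ID against GRCr8, and the highest-mean row of a gene was kept. The day contrast was fitted by lmFit and eBayes of limma 3.58.1 (R 4.3.3, two-sided) and adjusted over 14324 genes, after testing the code on simulated data. Samples are called biological replicates in the labels, but rings of an animal could lie in several pools, and the p-values then reflect only how these pools vary. Partner differences were tested by exact permutation of the 6 arrays. Python 3.11.15 handled tables, promoters and figures. The members, lists and motifs were chosen with earlier results of these data known; the brightness limit of 8 was chosen after seeing the values. All members could be named, with values in every array for the interferon-inducible genes, their partners and the most and least changed of each role, and up to 3 list genes per direction. Tap2, Nfe2l1, Irf1, Ifng, Coro1a and uncalled list genes were named after their values were seen. A planned comparison of protein sequences was not made. Alternatives were quantile normalization, median centring, leaving out the dimmest 25% of genes, the mean or most variable row, all rows tested singly, a trend on intensity together with a robust prior, array weights, the replicate block, and each array left out.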

Additional observations from a re-analysis of the deposited data

Results flagged for a closer look

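One row outside the comparison, because the annotation gives it 2 symbols, Psma3l and Psma3, carried a signal that was higher on day 1 than in the fresh rings. It was at 10.69, 10.54 and 10.72 on day 0 and at 11.07, 11.09 and 11 on day 1, a change of 0.404 ± 0.07 (limma over every row, adjusted p = 0.0039), with all day 1 arrays above all day 0 arrays.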

How the results depend on the processing

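Under the 15 alternatives the number of proteasome genes that rose was 39 to 45, against 42, and 0 fell in any of them by limma. Of 704 recomputed member changes 690 kept their direction and side of the threshold, 10 lost the call, 4 gained it and 0 reversed. With the replicate block 42 rose, and the block changed no member's call; same-numbered arrays did not deviate together (correlations across genes 0.011, 0.019 and 0.036), and day 0 replicate 2 correlated best with day 1 replicate 1. Quantile normalization gave 39 and lowered the members' median to 0.42, and median centring gave 45. Leaving out 1 array gave 40 to 42. The median of all genes moved by less than 0.1 under each scaling. The interferon-inducible count was 4 under every alternative except median centring, where it was 5. With the mean of a gene's rows, the change of Psmb9 minus Psmb6 was 0.611 and that of Psme2 minus Psme3 was 0.03 (main values 0.53 and -0.10); these average the second rows of Psmb6, Psme2 and Psme3. Class I presentation genes rose in 5 cases, against 8, with quantile normalization; 1 fell there and with the intensity trend and robust prior together, against 0. No detection calls were used, so dim rows such as those of Psmb11 and Ifng may lie near background.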
